A study of Mus musculus with 12 samples.

Results

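RNA levels of 9 genes of the FGF4 pathway were followed through mouse preimplantation development: the ligand gene Fgf4, the receptor genes Fgfr1 and Fgfr2, the feedback inhibitor genes Spry2, Spry4, Dusp4 and Dusp6, and the ETS transcription factor genes Etv4 and Etv5. They were chosen by name as a pathway, and all 9 were found among the 43472 genes of the deposited table. The embryos were of the CD1 strain and were profiled by RNA-seq as morulae, early blastocysts and late blastocysts. Zygotes of the control group had received a negative control siRNA, and those of the other group an siRNA against Tdgf1, the gene of the Nodal co-receptor Cripto. GFP mRNA was co-injected in both groups, so every embryo carried it. Each of the 6 groups held 2 libraries, numbered 1 and 2, which gives 4 libraries a stage when both siRNA groups are joined. The labels do not say whether the libraries of a group came from separate injections or embryos, so the spread behind the p-values is that between these libraries and may be technical. How many embryos went into each library is not stated there either.

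FGF4 is a secreted growth factor that binds receptor tyrosine kinases with the help of heparan sulphate and activates the ERK kinase cascade. In the mouse blastocyst it is known as a signal from epiblast precursors that drives neighbouring inner cells towards primitive endoderm and that sustains the trophectoderm next to the inner cell mass. ERK activity induces its own inhibitors: Sprouty proteins act on the receptor side of the cascade, DUSP phosphatases remove phosphate from ERK, and the ETV factors carry the signal to the genome.

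RefSeq promoter sequences (build GRCm38.p6) were matched for 5 of the 9 genes. Those of Dusp6 and Spry2, which both rose between the stages, are shown beside that of Fgf4, for which no change was called. Each run holds the 250 bases before the gene's start, 5′ to 3′ on the gene's strand, and in each case the bases that follow the window were found in a GENCODE M21 transcript of the gene. Capitals mark a match to a searched motif.
Dusp6 (chr10:99262981-99263230, plus strand): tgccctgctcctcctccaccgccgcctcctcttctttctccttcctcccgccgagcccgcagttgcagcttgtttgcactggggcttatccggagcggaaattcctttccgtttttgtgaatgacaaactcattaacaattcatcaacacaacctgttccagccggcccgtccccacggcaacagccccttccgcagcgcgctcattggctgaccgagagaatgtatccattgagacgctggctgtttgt
Spry2 (chr14:105896820-105897069, minus strand): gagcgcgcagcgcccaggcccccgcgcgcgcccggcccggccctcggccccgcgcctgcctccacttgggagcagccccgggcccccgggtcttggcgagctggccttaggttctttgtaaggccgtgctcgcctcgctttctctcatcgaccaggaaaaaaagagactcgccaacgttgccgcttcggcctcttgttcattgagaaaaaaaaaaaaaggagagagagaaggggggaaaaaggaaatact
Fgf4 (chr7:144861136-144861385, plus strand): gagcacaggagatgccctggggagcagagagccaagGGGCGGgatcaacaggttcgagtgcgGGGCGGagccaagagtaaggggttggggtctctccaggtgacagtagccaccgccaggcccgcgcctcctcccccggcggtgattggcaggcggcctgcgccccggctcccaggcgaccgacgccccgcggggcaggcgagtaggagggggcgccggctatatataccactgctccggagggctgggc

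The motifs searched on both strands were CCGGAA (an ETS site), TGANTCA (AP-1), TGACGTCA (CRE), ATGCAAAT (octamer) and GGGCGG (GC box). Of 32851 RefSeq windows of this length, 12.03% held the ETS letters, 6.75% AP-1, 1.55% CRE, 1.60% the octamer and 32.7% the GC box. The windows of Dusp6 and Spry2 held 0 matches to any of them, and the Fgf4 window held 2, both to the GC box. GC content was 56.4% for Dusp6, 62.4% for Spry2 and 71.2% for Fgf4, against a median of 52.4% over all windows. The RefSeq window of Fgfr2 is not shown, because the bases after it were found in no GENCODE M21 transcript of that gene. It held 0 matches. For Etv5, also not shown, the window at chr16:22439571-22439820 held 3 matches, all to the GC box. The other, at chr16:22438369-22438618, held 0. A link between motifs and stage changes was not tested.

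The libraries held 10524640 to 13770264 reads, so that 3 reads, taken as the upper limit where none was counted, stood at 0.218 to 0.285 CPM (reads of a gene per 1000000 reads, not divided by gene length). The limit covers counting error only, as the cDNA was amplified and no molecular identifiers are named. Tdgf1 RNA stood at 42.6% to 83.7% of the same-numbered control in 5 of the 6 pairs and at 116.5% in the early blastocyst pair numbered 2. Stage was followed by the first principal component (70.8% of the variance). Along it the early blastocyst libraries numbered 1 (6.01 and 1.20) stood apart from those numbered 2 (-20.2 and -15.9), and the late blastocyst Tdgf1 siRNA library numbered 1 (46.9) lay below the other 3 of its stage (56.5 to 60.5). Cumulus and granulosa cell markers were scarce: 1 of 10 passed the filter, Amhr2, and the summed list stood at 5.68 to 24.2 CPM in any library. Of 10 blood and oviduct markers 2 passed, and nearly all of their summed level was Epcam, which is also an embryo gene.

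Between the stages the genes followed different courses. Dusp6 rose at both steps, Fgfr2 and Spry2 rose at the second, Fgfr1 rose over the whole interval, and no change was called for Fgf4, Spry4 or Etv5. Changes were tested with limma on log2(deposited value + 1), where the 1 added equals 3.582 CPM. The 10751 genes whose mean reached 1 deposited unit entered, and a change was called at a Benjamini-Hochberg adjusted p below 0.05. Log2 changes on this scale understate those of low genes. Of the 9 genes, 8 passed this filter and Etv4 did not. From morula to early blastocyst 1 of the 8 was called higher and 0 lower, beside 19.7% and 14.0% of all tested genes, while 3 members had an unadjusted p below 0.05. With early blastocyst libraries numbered 1 only, 4 were called higher, and without the control library numbered 2 of that stage 3 were. From early to late blastocyst 3 were called higher and 1 lower, beside 27.0% and 17.7%. From morula to late blastocyst 4 were called higher and 1 lower, beside 36.6% and 24.3%. The stage comparisons share libraries and are not independent of each other. Calls were frequent among all genes, and the members' counts are to be read against those shares. The median log2 change from morula to late blastocyst was 0.54 over the members and 0.13 over all tested genes.

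**Figure D1:**
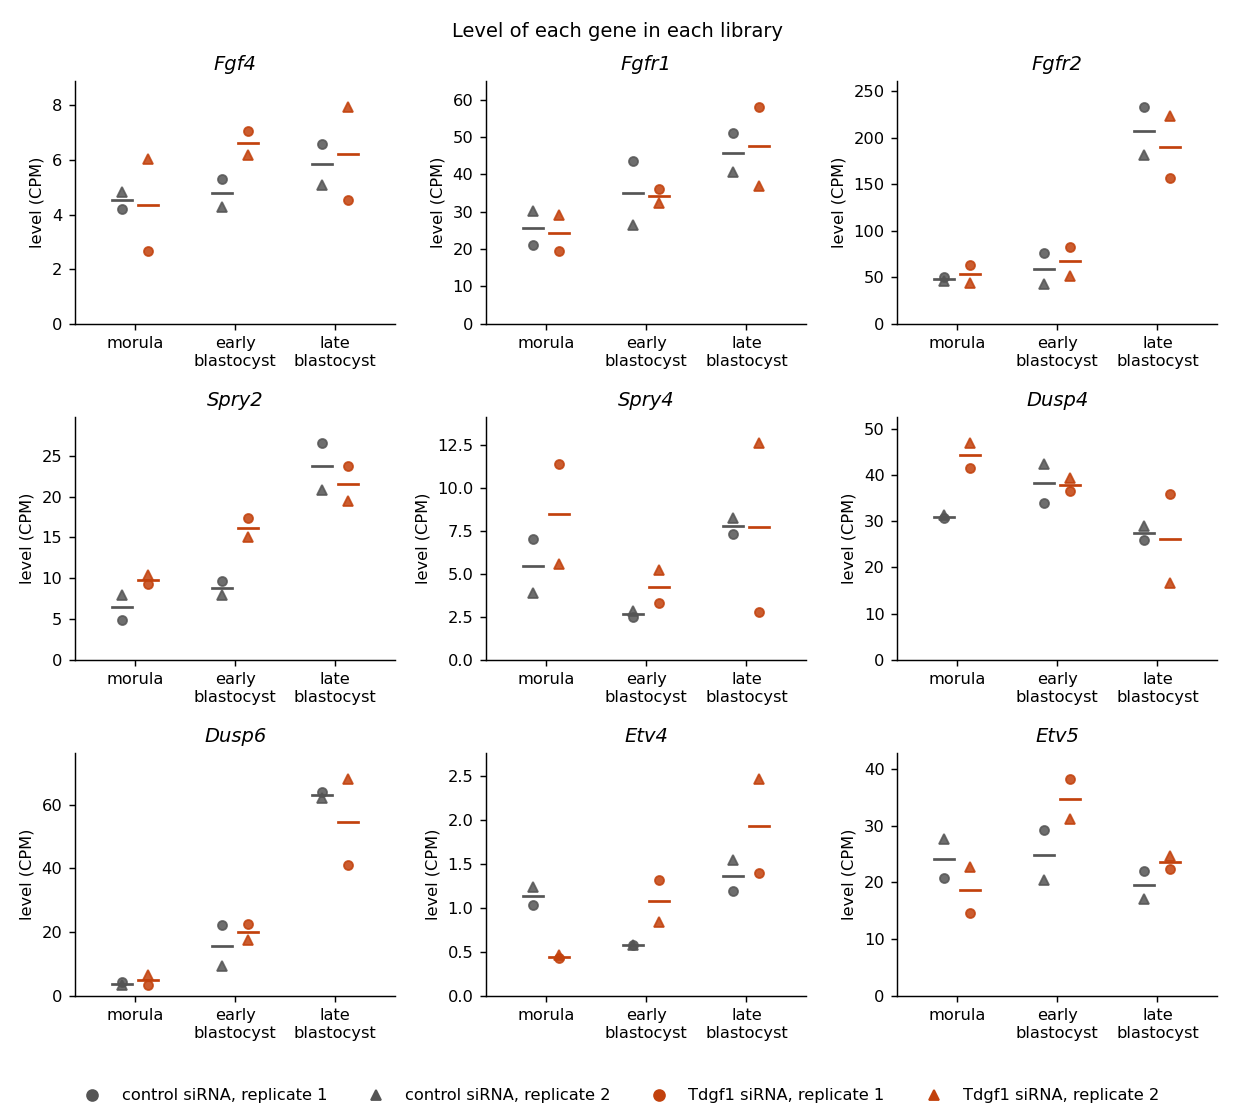
Level in CPM (linear axis from 0, own scale for each gene) of the 9 genes in the 12 libraries, by stage; grey is control siRNA, orange is Tdgf1 siRNA, circles are replicate 1, triangles replicate 2, and short lines are means of 2 libraries. Dusp6 separates all 3 stages, and Fgfr2 and Spry2 are highest in the 4 late blastocyst libraries.

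The ligand gene Fgf4 (ENSMUSG00000050917.5, chromosome 7, 144861386 to 144865245, plus strand) was covered by 31 to 90 reads in a library. Its level in the morulae was 4.20 and 4.85 CPM in the control libraries and 2.67 and 6.04 CPM in the Tdgf1 siRNA libraries. At early blastocyst the corresponding values were 5.29 and 4.28 CPM and 7.06 and 6.20 CPM. At late blastocyst they were 6.60 and 5.09 CPM and 4.54 and 7.94 CPM. The ranges of all 3 stages overlapped, with stage means of 4.44 ± 1.40 CPM at morula and 6.04 ± 1.54 CPM at late blastocyst (SD, n = 4). The log2 change from morula to late blastocyst was 0.27 (SE 0.19, limma adjusted p = 0.229), with a 95% interval of -0.13 to 0.67.

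Fgfr2 (ENSMUSG00000030849.18, chromosome 7, 130162451 to 130266808, minus strand) encodes an FGF receptor known from trophectoderm and primitive endoderm. The morulae held 50.5 and 46.6 CPM in controls and 63.0 and 43.8 CPM with Tdgf1 siRNA. At early blastocyst the controls held 76.0 and 42.8 CPM and the Tdgf1 siRNA libraries 83.0 and 52.0 CPM. At late blastocyst the levels were 233 and 181 CPM in controls and 157 and 223 CPM with Tdgf1 siRNA. All 4 late blastocyst libraries lay above all earlier ones, while morula and early blastocyst overlapped. The log2 change from early to late blastocyst was 1.62 (SE 0.20, limma adjusted p = 3.6e-05), a 3.08-fold rise on the same scale, and that from morula to early blastocyst was 0.26 (SE 0.20, adjusted p = 0.327). The first step of Fgfr2 depended on the early blastocyst libraries used. It was -0.09 without those numbered 1 and 0.62 without those numbered 2, both choices made after seeing the data.

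Both early blastocyst libraries numbered 1 were higher in Fgfr2 than those numbered 2, and they also differed in trophectoderm markers. The 13 trophectoderm markers summed to 4829 and 4611 CPM in the libraries numbered 1 and to 2339 and 2521 CPM in those numbered 2. Of the 13, 11 were higher in both libraries numbered 1 than in both numbered 2, among them Krt18, a keratin of that epithelium, at 1477 and 1262 CPM against 606 and 584 CPM. Elf5, also among the 11, stood at 0.165 and 0.164 CPM against 0.145 and 0.0765 CPM, all under the limit of 3 reads. Hand1, a transcription factor of the trophoblast, was lower, at 10.3 and 14.6 CPM against 25.5 and 35.2 CPM. The 12 primitive endoderm markers summed to 1541 and 1511 CPM in libraries numbered 1 and to 1238 and 1131 CPM in those numbered 2. Of these 12, 6 were higher in both libraries numbered 1 and 0 lower. Dab2 is on this list and on the trophectoderm list, at 572 and 619 CPM against 432 and 422 CPM. The 11 epiblast markers summed to 539 and 597 CPM against 677 and 733 CPM. By gene, 5 of the 11 were higher in both libraries numbered 1 and 3 lower. Nanog, among the latter, stood at 292 and 354 CPM against 427 and 420 CPM. The share of all tested genes that separated the libraries by number in this way was not counted, so these marker counts have no background. The libraries also stood apart along the first principal component of all tested genes. The part of these markers in the level of Fgfr2 was not tested, and in bulk samples fewer cells of a type and less RNA per cell cannot be told apart. From morula to late blastocyst 10 of the 13 trophectoderm markers were called higher and 3 lower, beside 36.6% and 24.3% of all tested genes. Their sum went from 1038 to 1402 CPM in the morulae to 7118 to 9876 CPM in the late blastocysts. At the first step 9 of the 13 were called higher and 2 lower, beside 19.7% and 14.0% of all tested genes. Of 12 primitive endoderm markers 9 were tested from morula to late blastocyst, and 8 were called higher and 1 lower. Of 11 epiblast markers 9 were tested, with 4 called higher and 4 lower. Some of these calls were for genes with a mean under the filter's 3.582 CPM in the morulae or the late blastocysts. These were 4 trophectoderm, 4 primitive endoderm and 3 epiblast markers, which passed the filter through the stages where they were high. In the morulae Sox7 and Foxa2 were at 0 in all 4 libraries.

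Fgfr1 (ENSMUSG00000031565.18, chromosome 8, 25518759 to 25575718, plus strand) encodes the receptor known to be shared by all inner cells. Its levels were 21.1 and 30.1 CPM (control) and 19.6 and 29.2 CPM (Tdgf1 siRNA) at morula. They were 43.6 and 26.4 CPM and 36.2 and 32.2 CPM at early blastocyst. At late blastocyst they reached 51.1 and 40.6 CPM and 58.0 and 37.0 CPM. Neighbouring stages overlapped, but every late blastocyst library was above every morula. Neither single step was called, with log2 changes of 0.42 (SE 0.20, limma adjusted p = 0.121) and 0.40 (SE 0.20, adjusted p = 0.123). Over both, Fgfr1 rose by 0.81 on the log2 scale (SE 0.20, limma adjusted p = 0.0029). An antisense transcript, Gm16159, overlaps Fgfr1 on the other strand with a mean of 0.751 CPM, and without strand information its reads cannot be separated from those of Fgfr1.

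The 2 receptors changed unequally. Per kilobase of exon, the ratio of Fgfr2 to Fgfr1 was 2.27 ± 0.850 in morulae, 1.90 ± 0.339 in early and 4.65 ± 1.43 in late blastocysts (SD, n = 4). The late blastocyst Tdgf1 siRNA libraries were at the ends of their stage, at 2.83 for number 1 and 6.32 for number 2, and the former lay within the morula range of 1.57 to 3.37. The ratios within libraries were chosen after seeing the data and carry no test.

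**Figure D2:**
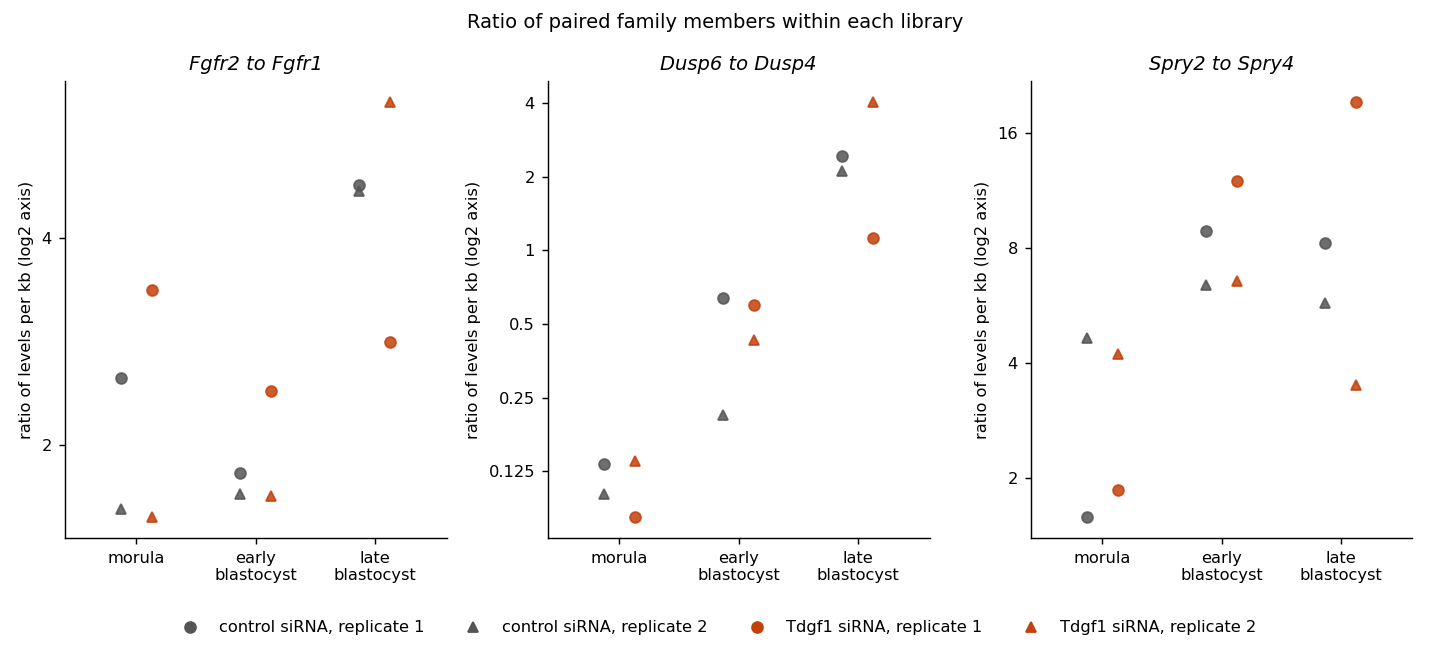
Ratio of levels per kilobase of exon within each library (log2 axis), by stage, for Fgfr2 to Fgfr1, Dusp6 to Dusp4 and Spry2 to Spry4; grey is control siRNA, orange is Tdgf1 siRNA, circles are replicate 1 and triangles replicate 2. The Dusp6 to Dusp4 ratio does not overlap between stages.

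Dusp6 (ENSMUSG00000019960.8, chromosome 10, 99263231 to 99267489, plus strand) encodes a cytoplasmic phosphatase that acts on ERK, and it had the largest stage change of the 8 tested genes. At morula it stood at 4.20 and 3.23 CPM in controls and 3.45 and 6.59 CPM with Tdgf1 siRNA. At early blastocyst it reached 22.1 and 9.22 CPM in controls and 22.3 and 17.3 CPM with Tdgf1 siRNA. The late blastocysts held 63.9 and 62.2 CPM in controls and 41.1 and 68.1 CPM with Tdgf1 siRNA. No library of one stage overlapped with another stage. Dusp6 rose by 1.39 (SE 0.23, limma adjusted p = 0.00065) at the first step and by 1.58 (SE 0.23, adjusted p = 0.00014) at the second on the log2 scale. Over both steps its log2 change was 2.97 with a 95% interval of 2.47 to 3.47 (limma adjusted p = 2.08e-07), which is 7.83-fold on values with 3.582 CPM added. The ratio of the stage means in CPM, with nothing added, was 13.5. Over the alternatives the log2 change ran from 1.77 to 3.67.

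Dusp4 (ENSMUSG00000031530.6, chromosome 8, 34807610 to 34819894, plus strand), the gene of a nuclear phosphatase of the same family, was not called higher at either step. Its level was 30.6 and 31.3 CPM (control) and 41.6 and 47.0 CPM (Tdgf1 siRNA) at morula and 34.0, 42.3, 36.5 and 39.3 CPM in the same order at early blastocyst. At late blastocyst it was 25.9 and 28.9 CPM in controls and 35.8 and 16.5 CPM with Tdgf1 siRNA. The stages overlapped, with the lowest value in the late blastocyst Tdgf1 siRNA library numbered 2. Dusp4 fell by 0.49 on the log2 scale from early to late blastocyst (SE 0.19, limma adjusted p = 0.045) and by 0.46 from morula (SE 0.19, adjusted p = 0.045). Both calls were close to the threshold, and of 25 alternatives 10 kept the first and 16 the second. Without the late blastocyst Tdgf1 siRNA library numbered 2 the changes were -0.25 and -0.22, and without that numbered 1 they were -0.74 and -0.70.

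Per kilobase, Dusp4 was the more abundant phosphatase gene at morula and Dusp6 at late blastocyst. The ratio of Dusp6 to Dusp4 was 0.0813 to 0.138 in morulae, 0.214 to 0.637 in early and 1.13 to 4.05 in late blastocysts. Each stage was separate from the others, and the 2 extremes at late blastocyst were the Tdgf1 siRNA libraries.

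Spry2 (ENSMUSG00000022114.5, chromosome 14, 105891947 to 105896819, minus strand) encodes a Sprouty inhibitor of receptor tyrosine kinase signalling. The morula levels were 4.85 and 7.98 CPM in controls and 9.32 and 10.3 CPM with Tdgf1 siRNA. At early blastocyst they were 9.67 and 7.99 CPM in controls and 17.3 and 15.0 CPM with Tdgf1 siRNA. At late blastocyst they were 26.6 and 20.8 CPM in controls and 23.7 and 19.4 CPM with Tdgf1 siRNA. The late blastocyst libraries were above all others. Spry2 rose by 0.74 on the log2 scale from early to late blastocyst (SE 0.17, limma adjusted p = 0.003) and by 1.18 from morula (SE 0.17, adjusted p = 3.9e-05). In Tdgf1 siRNA libraries only, the change from early to late blastocyst was 0.35 and not called. The first step alone, at 0.44, did not pass (SE 0.17, limma adjusted p = 0.0571).

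Spry4 (ENSMUSG00000024427.7, chromosome 18, 38586247 to 38601347, minus strand), a second Sprouty gene, was scattered between libraries, with 30 to 143 reads in a library. Its levels were 6.999, 3.90, 11.4 and 5.58 CPM at morula, 2.48, 2.83, 3.28 and 5.20 CPM at early blastocyst and 7.33, 8.25, 2.79 and 12.6 CPM at late blastocyst, with the 2 controls before the 2 Tdgf1 siRNA libraries. Early blastocyst held the lowest mean, 3.45 ± 1.22 CPM (SD, n = 4), but overlapped with both other stages. The first step was -0.55 (SE 0.27, limma adjusted p = 0.125) and the second 0.63 (SE 0.27, adjusted p = 0.0697), neither called. Without the late blastocyst Tdgf1 siRNA library numbered 1, the second step of Spry4 was 0.96 and was called (limma adjusted p = 0.0055). Gm27369 and Gm27804, small RNA genes on the opposite strand, overlap Spry4 with means of 0.0152 CPM and 0 CPM.

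The ratio of Spry2 to Spry4 per kilobase was 3.08 ± 1.59 in morulae, 8.47 ± 2.62 in early and 9.22 ± 7.04 in late blastocysts (SD, n = 4). Late blastocyst spanned 3.51 to 19.4, and again both ends were Tdgf1 siRNA libraries.

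Etv5 (ENSMUSG00000013089.15, chromosome 16, 22381313 to 22439570, minus strand), an ETS factor gene induced by FGF signalling in many tissues, was highest at early blastocyst by its mean. It stood at 20.7 and 27.6 CPM (control) and 14.7 and 22.8 CPM (Tdgf1 siRNA) at morula. At early blastocyst the values were 29.3 and 20.48 CPM and 38.3 and 31.2 CPM. At late blastocyst they were 22.0 and 17.0 CPM and 22.3 and 24.7 CPM. The stages overlapped. The log2 changes were 0.41 (SE 0.18, limma adjusted p = 0.0886) and -0.39 (SE 0.18, adjusted p = 0.0877), and that from morula to late blastocyst was 0.02 (SE 0.18, adjusted p = 0.934). The rise at the first step was called in 4 of 25 alternatives. The fall at the second step was called in 5 of 25, among them TMM scaling, edgeR and DESeq2.

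Etv4 (ENSMUSG00000017724.14, chromosome 11, 101769747 to 101785310, minus strand), the related ETS factor gene, was covered by 5 to 28 reads in a library and fell below the filter. It stood at 0.431 to 1.24 CPM in morulae, 0.579 to 1.31 CPM in early and 1.19 to 2.47 CPM in late blastocysts. Without a filter, over 32486 genes, its log2 change from morula to late blastocyst was 0.26 with limma (adjusted p = 0.0798) and 1.01 with edgeR (adjusted p = 0.301). Neither was called.

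Levels can be compared between genes per kilobase of exon. At morula Dusp4 (13.7 ± 2.92 CPM per kb) and Fgfr2 (10.6 ± 1.76) led and overlapped, and Etv5 (5.40 ± 1.35), Fgfr1 (4.98 ± 1.08) and Spry2 (3.89 ± 1.14) followed with overlapping ranges. Dusp6 (1.56 ± 0.550) came next, overlapping with Spry2, Spry4 and Fgf4. Etv4 (0.328 ± 0.169) lay below all others. At late blastocyst Fgfr2 (41.4 ± 7.45) and Dusp6 (21.0 ± 4.32) were first and second and overlapped with no neighbour. Spry2 (10.9 ± 1.53), Dusp4 (9.77 ± 2.92) and Fgfr1 (9.29 ± 1.92) overlapped among themselves. Etv5 (5.41 ± 0.819) overlapped with Dusp4 and lay above Fgf4 (1.99 ± 0.507), and Fgf4 overlapped with Spry4 (1.63 ± 0.848). All SD are over 4 libraries.

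**Figure D3:**
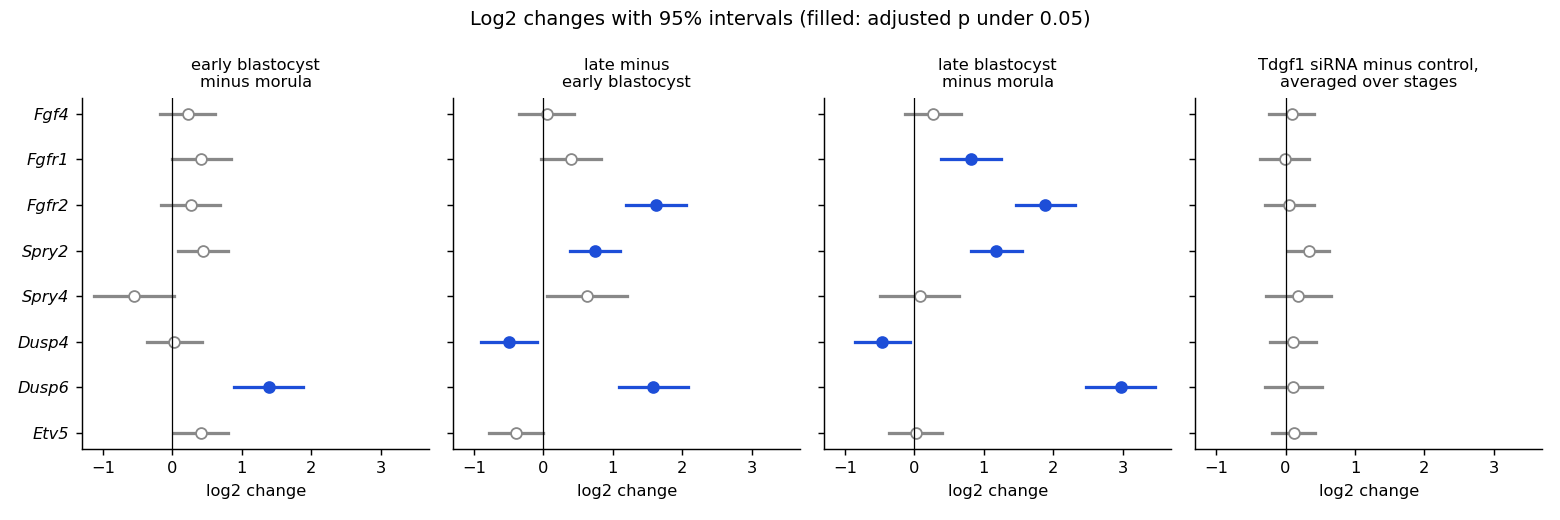
Log2 change (points) with 95% intervals (lines) of the 8 tested genes for the 3 stage comparisons and for Tdgf1 siRNA minus control averaged over stages; filled blue marks a limma adjusted p under 0.05. Dusp6 is the only gene called at the first step, and none is called for the siRNA.

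Other genes of the pathway were read from 6 lists for the change between morula and late blastocyst. A gene with a mean under 3.582 CPM in one of these stages passed the filter only through the stages where it was high, so its call is no support for a change of its list. That holds for 2 of 2 called ligand genes, 2 of 4 receptors and co-receptors, 1 of 7 heparan sulphate genes, 2 of 16 adaptors and kinases, 1 of 5 feedback regulators and 1 of 8 response genes. Of 21 further FGF ligand genes only 2 passed the filter, both of this kind: Fgf10 averaged 0.411 CPM in morulae and 12.7 CPM in late blastocysts, and Fgf1 10.4 and 0.724 CPM. Of 9 receptors and co-receptors 6 were tested, with 2 called higher and 2 lower. Flrt3, a membrane protein that binds FGF receptors, averaged 0.117 CPM in morulae and 19.4 CPM in late blastocysts, and the receptor gene Fgfr3 12.5 and 2.84 CPM, both again of this kind. Fgfbp1, a carrier of secreted FGFs, rose by 1.37 (SE 0.32), and the co-receptor gene Klb fell by 0.72 (SE 0.19).

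Heparan sulphate carriers and enzymes gave 5 higher and 2 lower calls among 12 tested. Ugdh, which makes a sugar precursor of heparan sulphate, rose by 2.50 (SE 0.21), the syndecan gene Sdc4 by 2.38 (SE 0.19) and the sulphatase gene Sulf2 by 1.32 (SE 0.22). The syndecan gene Sdc1 fell by 1.19 (SE 0.19), and the glypican gene Gpc4, under the filter at late blastocyst, averaged 10.6 CPM in morulae and 0.614 CPM there. The syndecan genes Sdc4 and Sdc1 thus changed in opposite directions.

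Adaptors and kinases of the cascade gave 11 higher and 5 lower calls among 30 tested. Called higher were Gab2 (1.64, SE 0.22), a docking protein, and Frs2 (1.30, SE 0.19), the docking protein of FGF receptors. Cblb, a ubiquitin ligase of activated receptors that was under the filter at morula, averaged 3.14 CPM there and 16.5 CPM in late blastocysts. The exchange factor gene Sos1 fell by 1.73 (SE 0.19), the adaptor gene Grb2 by 1.07 (SE 0.13) and the kinase gene Map2k2 by 0.71 (SE 0.12). The list's median log2 change was 0.30, against 0.13 over all tested genes.

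Among 10 tested feedback regulators 5 were called higher and 0 lower, with 5 genes at an unadjusted p below 0.05 in either direction. Errfi1, an inhibitor of EGF receptor family kinases, rose by 2.95 (SE 0.16, limma adjusted p = 1.46e-08), and the phosphatase gene Dusp3 by 1.14 (SE 0.17). Spry1, a further Sprouty gene under the filter at morula, averaged 2.87 CPM there and 12.2 CPM in late blastocysts. Among 10 tested ERK response genes 6 were called higher and 2 lower. Erf (1.44, SE 0.18) and Cic (1.41, SE 0.21), both repressors controlled by ERK, rose, and the cytokine gene Lif, under the filter at morula, averaged 1.497 CPM there and 12.1 CPM in late blastocysts. Klf2, a pluripotency factor, fell by 1.93 (SE 0.18) and Phlda1 by 0.73 (SE 0.24). These counts stand beside 36.6% higher and 24.3% lower calls over all tested genes.

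**Figure D4:**
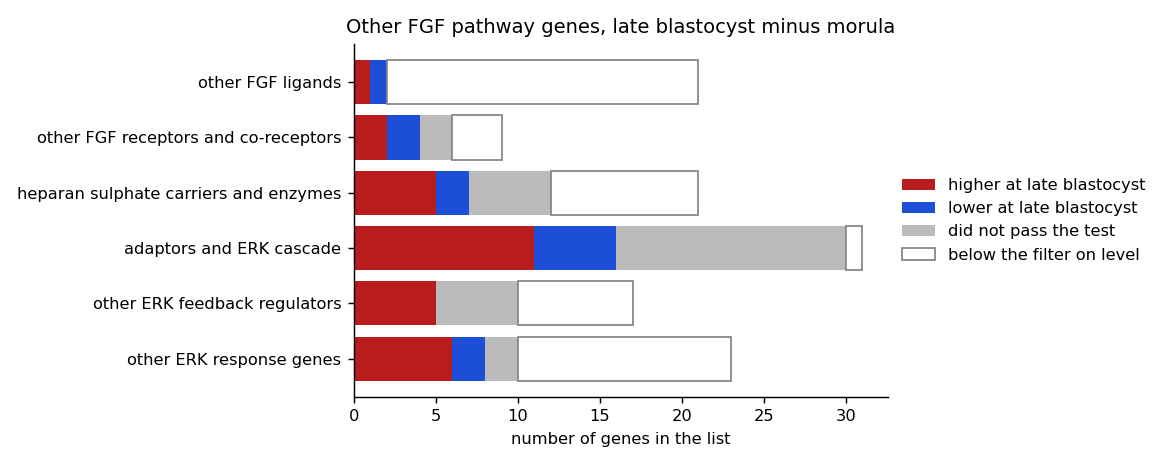
Number of genes in each of the 6 pathway lists (bars) called higher or lower at late blastocyst against morula, not called, or below the filter on level. Most further FGF ligand genes lie below the filter, and 30 of 31 cascade genes pass it.

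The Tdgf1 siRNA gave no call among the members. With limma, 0 of 8 members passed at morula, early or late blastocyst, over the average of the 3 stages, or for a difference between stages, and the share over all tested genes was 0.0% in each of the 5 comparisons. At an unadjusted p below 0.05 the members counted 0, 1, 0, 1 and 0, and all tested genes 194, 112, 221, 268 and 97. This fit, which also gave the siRNA intervals below, took no account of the same-numbered pairs. With the pairs as a block, all tested genes counted 663, 491, 697 and 916 in the first 4 comparisons, so the unadjusted counts depended on that choice. edgeR called 0 members in these 5 comparisons, and DESeq2 called 0 in the first 4, while it was not run for the difference between stages. In the 6 pathway lists 0 genes passed in any siRNA comparison.

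Spry2 was the member with the lowest unadjusted p and is described for that reason. It was higher with Tdgf1 siRNA in both pairs at morula and in both at early blastocyst, and lower in both at late blastocyst. The log2 difference at early blastocyst was 0.67 (SE 0.24), with a 95% interval of 0.16 to 1.18, and averaged over stages it was 0.33 (SE 0.14), with an interval of 0.04 to 0.63. After adjustment over all genes the limma p was 0.9996 at early blastocyst and 1 for the average. The difference between stages was not called for Spry2 either (unadjusted p = 0.09, limma moderated F test).

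The 2 control and 2 Tdgf1 siRNA values did not overlap for 2 of 8 members in morulae, 4 in early and 1 in late blastocysts, all higher with the siRNA. Over all tested genes 27.5%, 19.4% and 31.9% did not overlap, counting either direction. The members were Spry2 and Dusp4 at morula, Fgf4, Spry2, Spry4 and Etv5 at early blastocyst, and Etv5 at late blastocyst. Etv4, below the filter and not among the 8, was lower with the siRNA at morula, at 0.431 and 0.458 CPM against 1.03 and 1.24 CPM. At early blastocyst Etv4 was higher with it, at 1.31 and 0.842 CPM against 0.579 and 0.581 CPM. Without a filter its limma log2 differences there were -0.23 and 0.16, neither called. For Etv5 at early blastocyst the means were 34.7 ± 5.07 CPM against 24.9 ± 6.21 CPM in controls (SD, n = 2), a log2 difference of 0.44 (SE 0.25) with a 95% interval of -0.10 to 0.98. In that group the library numbered 2 had no less Tdgf1 RNA than its control.

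Averaged over the 3 stages, the siRNA differences of the other 7 members lay between -0.01 (Fgfr1) and 0.18 (Spry4). The 95% intervals of all 8 reached 0.295 to 0.467 on either side of the estimate. For Fgfr2 the interval was -0.30 to 0.41 and for Dusp6 -0.29 to 0.52. At a single stage the intervals reached 0.51 to 0.81 either side.

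At late blastocyst the Tdgf1 siRNA library numbered 1 was the lowest of its stage for Fgf4, Fgfr2, Dusp6 and Spry4 and the highest for Fgfr1 and Dusp4. The same library was the lowest of its stage for 9 of 12 primitive endoderm markers: Sox17 stood at 23.6 CPM against 40.5 to 45.3 CPM in the other 3 libraries, Gata4 at 7.86 CPM against 19.7 to 26.4 CPM, Sox7 at 0.436 CPM against 4.24 to 8.03 CPM and Foxa2 at 0.436 CPM against 3.27 to 4.58 CPM. The sum of all 12 primitive endoderm markers was 2220 CPM there and 2140 to 2197 CPM in the others. This library was the highest of its stage for Gata6 (284 CPM against 176 to 245 CPM) and Lrp2 (1167 CPM against 866 to 944 CPM), and it lay between the others for Pdgfra. The 13 trophectoderm markers summed to 7118 CPM against 8341 to 9876 CPM, and 8 of them were lowest and 2 highest in this library. Of 11 epiblast markers 3 were lowest and 3 highest in it. The share of all tested genes for which this library was the lowest of its stage was not counted, so these marker counts have no background. The part of these markers in the levels of these members was not tested.

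For each tested member the 3 genes with the most similar course were found by Pearson's r of log2 values over the 12 libraries, among 6949 genes whose mean reached 5 deposited units. These correlations describe libraries that share stage, and carry no test. Fgfr2 was followed most closely by 4930473A02Rik (r = 0.993), Ptpra (0.991) and Rhbdl2 (0.986), and Dusp6 by Arpc2 (0.987), Gm12169 (0.987) and Rala (0.986). For Spry2 they were Slc25a46 (0.943), Fez2 (0.942) and Abhd12 (0.940), and for Fgfr1 Rnf130 (0.969), Cep78 (0.953) and Aplp2 (0.945). The members without a call had less close neighbours: Ren1 (0.868), Srebf1 (0.855) and Triobp (0.836) for Fgf4, Naa30 (0.833), Tagap1 (0.8288) and Bex1 (0.816) for Spry4, and Raver1 (0.848) and Epb4.1l4b (0.833) among those for Etv5. For Dusp4 they were Mrpl32 (0.904), Ywhae (0.887) and Ube2v2 (0.853). These choices were unstable: leaving out 1 library at a time kept 10 to 17 of the 24 genes.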

How the data were processed

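SMARTer Ultra Low Input and NEBNext Ultra DNA kits were used for the libraries, per the labels' protocols; neither source states strand. The submitters' processing notes list HISAT2 2.1.0, Cufflinks, HTSeq and edgeR and the build mm10, without roles. The authors deposited 1 table with columns named RPKM in its header. The deposited values are CPM divided by a constant: in each column 100.0% of values were whole multiples of 1 read within 0.01, the same step for genes of all lengths, and each column summed to 279173.646. Levels are therefore given in CPM (deposited value times 3.582). The design had been written for RPKM; its test suits CPM and was kept.

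All 12 libraries entered 1 limma 3.58.1 fit (R 4.3.3, lmFit, eBayes with trend) of 6 group means, with 6 residual and 7.55 prior degrees of freedom. Stage contrasts averaged both siRNA groups with equal weight. Benjamini-Hochberg adjustment was over all tested genes of a comparison. The fit was tested only on simulated libraries drawn independently with a fixed spread. That test does not cover deviations shared by same-numbered libraries. Exon length was the union of CCDS-tagged GENCODE M21 exons, and gene coordinates are from RefSeq GRCm38.p6. Libraries of 1 group differed by a chi-square of 20.7 to 49.8 per gene, so none were merged.

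Same-numbered control and Tdgf1 siRNA libraries deviated together from their group means (r = 0.458 in morulae, 0.593 in early and 0.101 in late blastocysts). They were treated as pairs on that ground alone, since no label names a shared day. For late blastocysts the pairing is uncertain. The pairs entered descriptions and the replicate block only. The main fit, which gave the siRNA differences and intervals of the Results, had no term for them. For the siRNA differences, a fit with these pairs as a block had 3 residual degrees of freedom. For the stage changes, the replicate block was instead 1 term for the library number, shared by all stages. Neither that term nor the main fit allowed for pairs within a stage in the stage changes.

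The members, the gene lists and the marker lists were chosen with earlier results of these data known. Genes named beside the members were, for each pathway list, up to the 3 highest and 3 lowest log2 changes among calls from morula to late blastocyst, and the 3 nearest patterns of each member. Of the latter, 1 is not reported here. Alternatives were pseudocounts of 0.1 and 5, no filter and a filter at 5, quantile and TMM scaling, edgeR 4.0.16 and DESeq2 1.42.0 on the recovered reads, either siRNA group alone, the replicate block, and leaving out each library. The fits with 1 early blastocyst replicate number, and the alternatives for ratios and nearest patterns, were added after seeing the data.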

Additional observations from a re-analysis of the deposited data

How the results depend on the processing

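The rises of Dusp6 at both steps, of Fgfr2 from early to late blastocyst, and of Fgfr1, Fgfr2, Spry2 and Dusp6 from morula to late blastocyst were called under every alternative run. The rise of Spry2 from early to late blastocyst was called in 23 of 24, the exception being Tdgf1 siRNA libraries only (0.35). For the other pathway genes named, 603 alternative values kept direction and call and 9 kept direction only. The replicate block changed no call of a member: 0 were called in any siRNA comparison with it, and over all genes it called 5 in morulae, 5 in early and 3 in late blastocysts where the fit without it called 0. Without a filter limma called 11 genes at late blastocyst, none a member. The median log2 change of all genes from morula to late blastocyst was 0.13 as deposited, -0.07 after quantile normalization and 0.01 with TMM scaling. Higher calls made up 60.0%, 46.6% and 51.3% of all calls there, and 60.4%, 46.8% and 51.8% from early to late blastocyst. The causes of the changes below were not tested unless the alternative's own construction (fewer libraries, more genes tested) gives one.

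Members called higher from morula to early blastocyst numbered 2 with Tdgf1 siRNA libraries only, 4 with early blastocyst libraries numbered 1 only, and 1 to 3 leaving out each library (3 without early blastocyst control siRNA replicate 2). Members called lower from early to late blastocyst numbered 0 with no filter, control siRNA only, Tdgf1 siRNA only or early blastocyst libraries numbered 2 only, and 2 with quantile normalization, TMM scaling, edgeR or DESeq2; leaving out each library gave 0 to 1. Members called lower from morula to late blastocyst numbered 0 with no filter or control siRNA only, and 0 to 1 leaving out each library.

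The following changes were not called and turned sign. From morula to early blastocyst, Dusp4 was -0.029 (quantile), -0.013 (TMM), -0.21 (Tdgf1 siRNA only), -0.065 (early blastocyst libraries numbered 1 only), -0.0033 (edgeR) and -0.017 (DESeq2), and -0.041 to 0.10 leaving out each library; Fgfr2 was -0.091 with early blastocyst libraries numbered 2 only. From early to late blastocyst, Fgf4 was -0.18 (quantile), -0.010 (TMM), -0.077 (Tdgf1 siRNA only) and -0.027 (early blastocyst libraries numbered 1 only), and -0.080 to 0.17 leaving out each library. From morula to late blastocyst, quantile normalization gave -0.052 for Fgf4, -0.24 for Spry4 and -0.26 for Etv5. TMM scaling gave -0.016 for Spry4 and -0.10 for Etv5. Spry4 was -0.20 with Tdgf1 siRNA only, and -0.26 to 0.41 leaving out each library. Etv5 was -0.26 (control siRNA only), -0.14 (edgeR) and -0.15 (DESeq2), and -0.11 to 0.15 leaving out each library.

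Among siRNA differences, Fgfr1 at early blastocyst was -0.0038 (pseudocount 5), -0.014 (quantile), -0.00099 (TMM), -0.027 (edgeR) and -0.025 (DESeq2), and Fgf4 at late blastocyst was -0.020 (quantile). Leaving out each library at morula gave -0.37 to 0.25 for Fgf4, -0.32 to 0.18 for Fgfr1, -0.13 to 0.35 for Fgfr2 and -0.050 to 0.48 for Dusp6. At early blastocyst it gave -0.32 to 0.33 for Fgfr1, -0.20 to 0.58 for Fgfr2, -0.15 to 0.14 for Dusp4 and -0.14 to 0.86 for Dusp6. At late blastocyst it gave -0.21 to 0.29 for Fgf4, -0.28 to 0.33 for Fgfr1, -0.38 to 0.12 for Fgfr2, -0.27 to 0.038 for Spry2, -0.83 to 0.51 for Spry4, -0.62 to 0.35 for Dusp4 and -0.58 to 0.11 for Dusp6. Averaged over stages it gave -0.014 to 0.19 for Fgf4, -0.12 to 0.097 for Fgfr1, -0.074 to 0.19 for Fgfr2, -0.040 to 0.41 for Spry4, -0.052 to 0.27 for Dusp4 and -0.053 to 0.28 for Dusp6.

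Precision is limited by 2 libraries a group and by depth, with 31 reads of Fgf4, 30 of Spry4 and 5 of Etv4 in their lowest libraries.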
